A study of Mus musculus with 15 samples.

Results

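The TGF-beta and BMP signalling genes described here were the ligands Tgfb1, Tgfb2 and Tgfb3, the receptors Tgfbr1 and Tgfbr2, the inhibitory Smads Smad6 and Smad7, and the target genes Id1, Id2 and Id3. They were taken by gene name from the array's probe annotation, which gave 10 genes of 27343 named genes and 16 probes of 41174. All 10 genes were bright enough to test in every comparison. They were chosen with earlier results of these data known.

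Expression was measured on 15 one-colour Agilent mouse arrays. Expandable hepatocytes were cultured for 21 days as eHep, the cells in expansion medium, or as mHep, a name the labels did not spell out and which was taken to mean the cells in differentiation medium. Mouse 129S1-No1 (strain 129S1) and mouse C57B6-No1 (strain C57B6) gave 3 eHep and 3 mHep arrays each, mouse 129S1-No2 (strain 129S1) gave 1 of each, and 1 array held primary hepatocytes freshly isolated from C57B6 mice by collagenase perfusion. For 129S1-No2, the source name of the mHep array says eHep, so its title decided the group. Each strain is thus represented by 1 mouse with repeated arrays, and nothing in the labels shows that arrays of 1 mouse and medium came from separate cultures, so p-values within a mouse measure only the spread between these arrays, which may be technical.

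TGF-beta ligands are secreted in a latent form. Once released they bind the type II receptor TGFBR2, which recruits and phosphorylates the type I receptor TGFBR1, and this receptor activates Smad2 and Smad3. Bone morphogenetic proteins (BMPs) act through related receptors on Smad1, Smad5 and Smad9, and both branches need Smad4 to reach their target genes. Smad6 and Smad7 are induced by the pathway and block it, Smad6 mainly the BMP branch and Smad7 both branches. Id1, Id2 and Id3 are direct targets of BMP signalling in many cells and encode proteins without a DNA-binding region that sequester the E proteins, a class of basic helix-loop-helix transcription factors. In liver, TGF-beta restrains hepatocyte growth and drives fibrosis, and BMP signalling controls the iron hormone hepcidin.

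Each probe is a 60-base oligonucleotide that captures labelled RNA of its gene. The probes of Smad6 and Id3, whose folds in 129S1-No1 were the largest of the 10 genes, of Id2, which rose in C57B6-No1, and of the ligand Tgfb1 are shown, and all 4 lie in coding sequence. They are written 5′ to 3′ in lower case, with the positions in mm9 that the scanner files give, and the capitals in the Id2 probe mark the stop codon at its end. The Id3 probe covers 175 bases of genome at chr4:135700075-135700249 (plus strand) and the Id2 probe 348 bases at chr12:25780183-25780530 (minus strand), so both cross an exon junction. The Smad6 probe lies at chr9:63801378-63801437 (minus strand) and the Tgfb1 probe, spotted 10 times per array, at chr7:26489877-26489936 (plus strand).
Smad6: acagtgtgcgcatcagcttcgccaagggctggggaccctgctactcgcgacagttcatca
Id3: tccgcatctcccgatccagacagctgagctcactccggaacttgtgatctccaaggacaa
Id2: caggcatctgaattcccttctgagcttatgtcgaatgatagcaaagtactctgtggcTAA
Tgfb1: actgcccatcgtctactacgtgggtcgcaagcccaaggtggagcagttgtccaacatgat

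The share of probes with a signal well above background ranged from 48.8% to 61.9% over cultured arrays and was 36.3% for primary cells. A level is the log2 signal of a probe minus the 75th percentile of the same array, so 0 is that percentile, and levels of different genes are not compared because probes differ in brightness. Differences are on the log2 scale. The hepatocyte label was checked on 11 marker genes. Of these, 4 to 7 were above background on eHep arrays, 10 or 11 on mHep arrays and 11 on the primary array. Their summed signal, in multiples of the 75th percentile, was 1.72 to 29.1 in eHep, 363 to 1810 in mHep and 10800 in primary cells. The sums differed between mice in both media. In eHep they were 25.9 to 29.1 in 129S1-No1, 1.72 to 5.23 in C57B6-No1 and 2.65 for 129S1-No2. In mHep they were 1230 to 1810, 378 to 494 and 363 in the same order. The part of this in the changes of the 10 genes was not tested. The arrays were scanned in an earlier and a later session. Primary cells, mouse 129S1-No2 and the third replicates of C57B6-No1 were scanned in the earlier one and all others in the later one, so scan and mouse overlapped. RNA is pooled over all cells of a sample, so fewer cells of a type and less RNA per cell cannot be told apart.

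**Figure D1:**
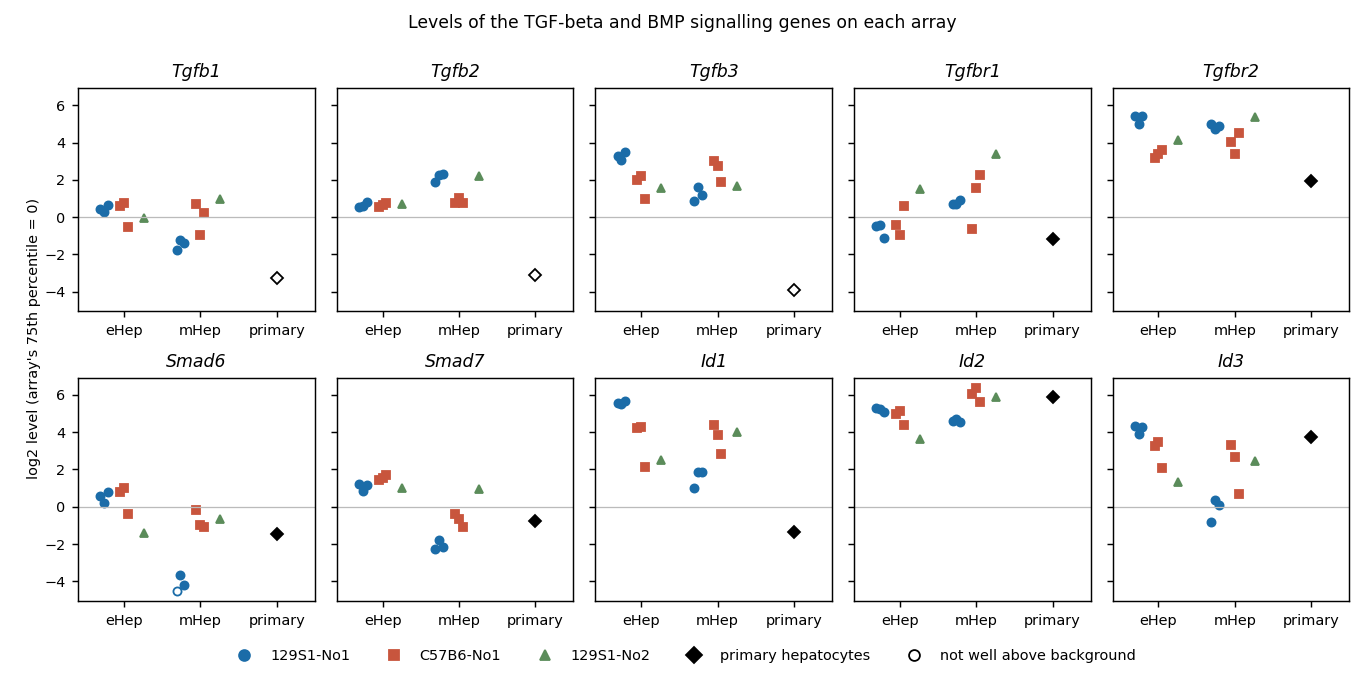
Log2 level of each gene relative to the array's 75th percentile (vertical axis) on all 15 arrays, by medium (horizontal axis) and mouse (colour and shape); open symbols were not well above background. The 3 ligands were not well above background in primary cells, and Id1, Id3, Smad6 and Smad7 were lower on every mHep array of 129S1-No1 than on any of its eHep arrays.

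Between mHep and eHep, the genes that passed the test differed from mouse to mouse. In 129S1-No1, Id1, Id3, Smad6, Smad7, Tgfb1 and Tgfb3 fell and Tgfb2 rose. In C57B6-No1, Smad6 and Smad7 fell and Id2 rose. Averaged over the 3 mice, 0 of 10 genes passed limma's test at an adjusted p of 0.05, beside 1.84% of all 14597 genes tested, and 2 of 10 (Smad7 and Tgfbr1) had an unadjusted p under that value. The median over the 10 genes was -0.39, against -0.10 over all genes tested. Within 129S1-No1, 7 of 10 passed, beside 44.4% of all genes, and within C57B6-No1 3 of 10 passed, beside 25.2%. The median over the 10 genes was -2.0 in 129S1-No1 and 0.17 in C57B6-No1, against -0.38 and -0.09 over all genes.

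In 129S1-No1 the medium and the slide were the same split, since its 3 eHep arrays shared one slide and its 3 mHep arrays another. Replicates 1 and 2 of C57B6-No1 in eHep lay one on each of those slides and had Id1 levels of 4.24 and 4.29 and Smad6 levels of 0.77 and 1.03. With slide as a term in the model, 6 of the 7 genes passed in 129S1-No1, all but Tgfb1, beside 3039 of all 15743 genes. In this mouse that term rests only on the C57B6-No1 pair, so it cannot settle whether slide or medium made the difference.

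Among the ligands, Tgfb2 was the only one higher in mHep in all 3 mice. Its eHep levels were 0.56, 0.61 and 0.82 in 129S1-No1, 0.55, 0.67 and 0.74 in C57B6-No1 and 0.70 for 129S1-No2. Its mHep levels were 1.86, 2.25 and 2.30 in 129S1-No1, 0.78, 1.03 and 0.76 in C57B6-No1 and 2.23 for 129S1-No2. The eHep arrays of the 3 mice lay close together, and the mHep arrays of both 129S1 mice were above all of them. The rise in 129S1-No1 was 1.47 ± 0.19 (SE), or 2.77-fold, with an adjusted p of 2.29e-04. In C57B6-No1 the difference was 0.20 ± 0.19 (adjusted p = 0.516), and over the 3 mice it was 1.07 ± 0.44 (adjusted p = 0.342).

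Tgfb3 and Tgfb1 were lower in mHep of 129S1-No1. Tgfb3 read 3.29, 3.09 and 3.50 in eHep and 0.87, 1.61 and 1.18 in mHep of that mouse, a fall of 4.21-fold (adjusted p = 0.00182). In C57B6-No1 it read 2.00, 2.23 and 0.95 in eHep and 3.00, 2.72 and 1.91 in mHep, where the groups overlapped in range (adjusted p = 0.149). Replicate 3 of both media, on the earlier scan, was the lowest of its group. The difference of 0.82 passed in limma with scan as a term (adjusted p = 0.0119) or with the replicate block (adjusted p = 0.0438). That block matches arrays by replicate number, although same-numbered arrays did not pair. Of all 15743 genes, 6085 passed with scan as a term and 4746 with the replicate block. The 2 arrays of 129S1-No2 gave 1.55 in eHep and 1.66 in mHep. Tgfb1, the founding member of the ligand family, had levels of 0.43, 0.26 and 0.66 in eHep and -1.79, -1.25 and -1.38 in mHep of 129S1-No1, a 3.79-fold fall (adjusted p = 0.00621). Its difference was -0.30 in C57B6-No1 (adjusted p = 0.697) and 1.00 for 129S1-No2, which has no replicate.

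Both receptors were read well above background on every array by at least 1 probe. Tgfbr1, the type I receptor, was higher in mHep in each mouse, by 1.43 in 129S1-No1, 1.33 in C57B6-No1 and 1.86 for 129S1-No2. Over the 3 mice the difference was 1.54 ± 0.38 (SE), or 2.91-fold, with an adjusted p of 0.13, so it did not pass. Its arrays ranged from -1.10 to 1.51 in eHep and from -0.63 to 3.37 in mHep, and the ranges overlapped. A dimmer Tgfbr1 probe, above background on 9 arrays, gave differences of 1.72, 0.62 and 1.44 in the same order of mice.

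Tgfbr2, the ligand-binding receptor, ranged from 3.19 to 5.45 in eHep and from 3.37 to 5.35 in mHep. Its difference was -0.42 in 129S1-No1, 0.57 in C57B6-No1 and 1.20 for 129S1-No2, and 0.45 ± 0.46 over the 3 mice (adjusted p = 0.714). In eHep the 129S1-No1 arrays, at 5.43, 4.98 and 5.45, lay above those of C57B6-No1, at 3.19, 3.41 and 3.60. The other probes of Tgfbr2 were above background on 12 and 2 arrays and gave the same sign as the brightest probe in every mouse.

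The inhibitory Smads were lower in mHep of both mice with 3 arrays per medium. Smad7 read 1.24, 0.82 and 1.16 in eHep and -2.29, -1.81 and -2.17 in mHep of 129S1-No1. In C57B6-No1 it read 1.42, 1.55 and 1.68 in eHep and -0.37, -0.67 and -1.09 in mHep. The eHep and mHep arrays did not overlap in either mouse. Smad7 fell 8.99-fold in 129S1-No1 (adjusted p = 6.12e-06; 4.92-fold with normexp) and 4.79-fold in C57B6-No1 (adjusted p = 7.34e-05). The 129S1-No2 arrays did not share this, with 1.00 in eHep and 0.94 in mHep. Over the 3 mice the difference was -1.83 ± 0.65 (adjusted p = 0.268), and without 129S1-No2 it passed the test. With single arrays as samples, with or without scan or slide in the model, it passed too, but not within the earlier scan. Replicate 3 of C57B6-No1, whose eHep and mHep arrays shared a slide and a scan with each other, read 1.68 and -1.09.

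Smad6 had eHep levels of 0.60, 0.21 and 0.80 in 129S1-No1, 0.77, 1.03 and -0.41 in C57B6-No1 and -1.42 for 129S1-No2. Its mHep levels were -4.51, -3.67 and -4.21 in 129S1-No1, -0.16, -0.98 and -1.11 in C57B6-No1 and -0.65 for 129S1-No2. The first of these mHep readings was not well above background, so the 25.4-fold fall in 129S1-No1 (adjusted p = 1.53e-05) rests on 2 measured arrays of 3 in mHep. With normexp background correction it was 5.21-fold (adjusted p = 0.0122). In C57B6-No1 the fall was 2.33-fold with an adjusted p of 0.0492, close to the threshold. That call was lost with normexp background correction, without the filter, with the mean of all probes or with slide as a term, and when any of 10 of the 12 arrays of these mice was left out.

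Id1 differed between the mice in both media. Its eHep levels were 5.54, 5.49 and 5.70 in 129S1-No1, 4.24, 4.29 and 2.11 in C57B6-No1 and 2.51 for 129S1-No2. Its mHep levels were 1.01, 1.86 and 1.84 in 129S1-No1, 4.37, 3.85 and 2.83 in C57B6-No1 and 4.01 for 129S1-No2. The mouse with the highest Id1 in eHep thus had the lowest in mHep. The fall in 129S1-No1 was 4.01 ± 0.57 (SE), or 16.1-fold, with an adjusted p of 3.77e-04. In C57B6-No1 the difference was 0.14 ± 0.57 (adjusted p = 0.909). A second Id1 probe, shifted along the gene by 10 bases, gave -4.03, 0.19 and 1.57 for 129S1-No1, C57B6-No1 and 129S1-No2, but it shares most of its sequence with the first and is not an independent reading.

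Id3 followed Id1 in 129S1-No1. It read 4.32, 3.91 and 4.29 in eHep and -0.81, 0.34 and 0.10 in mHep of that mouse, a 19.7-fold fall (adjusted p = 4.19e-04). In C57B6-No1 it read 3.24, 3.46 and 2.09 in eHep and 3.34, 2.68 and 0.68 in mHep, where the arrays overlapped (adjusted p = 0.476). In 129S1-No2 it read 1.33 in eHep and 2.45 in mHep. In both media, replicate 3 of C57B6-No1, the one on the earlier scan, was the lowest of its group for Id1 and for Id3.

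Id2 rose in mHep of C57B6-No1. Its eHep levels were 5.29, 5.22 and 5.06 in 129S1-No1, 4.97, 5.12 and 4.37 in C57B6-No1 and 3.66 for 129S1-No2. Its mHep levels were 4.58, 4.69 and 4.57 in 129S1-No1, 6.06, 6.38 and 5.62 in C57B6-No1 and 5.89 for 129S1-No2. Every mHep array of C57B6-No1 was above every eHep array of that mouse, a 2.30-fold rise (adjusted p = 0.00564). In 129S1-No1 the mHep arrays were below the eHep arrays, with a difference of -0.58 ± 0.25 that did not pass (adjusted p = 0.0853). The other Id2 probes gave -0.78 and -0.47 in 129S1-No1, 0.98 and 1.51 in C57B6-No1, and 2.17 and 1.33 for 129S1-No2.

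**Figure D2:**
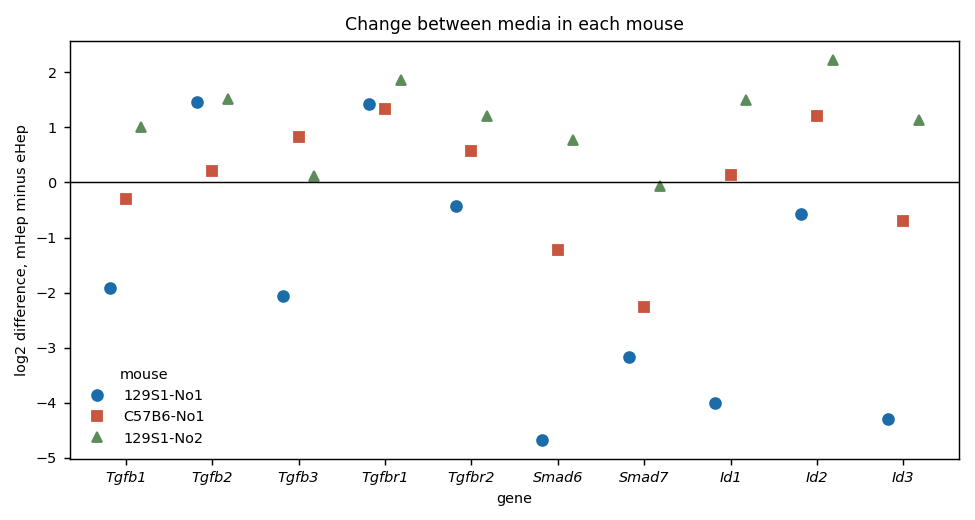
Log2 difference in level, mHep minus eHep (vertical axis), for each gene (horizontal axis) in the 3 mice; each point is a difference of 2 means of arrays, or of 2 single arrays in 129S1-No2. Tgfb2 and Tgfbr1 were above 0 in every mouse, whereas Id3 ran from -4.30 in 129S1-No1 to 1.13 in 129S1-No2.

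The change between media differed between the 2 mice with 3 arrays per medium for 6 of the 10 genes, beside 16.6% of all 15743 genes tested. These were Id1, Id2, Id3, Smad6 and Tgfb3, whose change was higher in C57B6-No1, and Tgfb2, whose change was lower there. The gap was 4.15 ± 0.80 (SE) for Id1, 3.60 ± 0.87 for Id3, 3.45 ± 0.57 for Smad6, 2.89 ± 0.54 for Tgfb3, 1.77 ± 0.36 for Id2 and -1.27 ± 0.27 for Tgfb2. Their limma adjusted p-values lay between 0.00303 for Smad6 and 0.0198 for Id3. For Smad7 the gap was 0.91 ± 0.34 (adjusted p = 0.0893), for Tgfb1 1.62 ± 0.63 (adjusted p = 0.102), and neither passed. The median gap was 1.70 over the 10 genes and 0.26 over all genes tested. Each strain had 1 such mouse, so mouse and strain cannot be told apart, and the media of 129S1-No1 lay on different slides. With slide as a term, 4 genes (Tgfb3, Smad6, Id1 and Id2) passed, beside 1331 of all 15743 genes. For 129S1-No1 that term rests only on replicates 1 and 2 of C57B6-No1 in eHep. With normexp background correction Tgfb2 and Smad6 were lost (gaps of -1.0 and 1.38), and Id3 was lost without replicate 1 of 129S1-No1 in either medium.

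The third mouse, 129S1-No2, shares its strain with 129S1-No1 and had 1 array per medium, so its changes have no replicate check. Id1, Id2, Id3, Smad6 and Tgfb1 were each higher in its mHep array than in its eHep array, by 1.5, 2.23, 1.13, 0.78 and 1.00. So were Tgfb3, by 0.11, and Tgfbr2, by 1.20. Each of these genes was lower in mHep of 129S1-No1, although Id2 and Tgfbr2 did not pass there. The difference between these mice was not tested. Both arrays of 129S1-No2 were on the earlier scan and on different slides.

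Against primary hepatocytes, Tgfb2 and Tgfb3 were higher in both eHep and mHep, and Tgfb1 and Id1 were higher in eHep. In eHep 4 of 10 genes passed, all higher than in primary cells, beside 15% of all 15168 genes tested. The 3 ligands among them entered the test through the cultured arrays alone, being dark in primary cells, so this count is no support for a shift of the group. In mHep 2 of 10 passed, Tgfb2 and Tgfb3, beside 9.98%. Both comparisons share the 1 primary array, and as it has no replicate, the fit assumed that it varies like the cultured means. The median difference over the 10 genes was 2.16 for eHep and 2.86 for mHep, against -0.19 and -0.34 over all genes. The genes that passed in mHep are such ligands, and both medians include the 3 ligands. These values are therefore no support for a shift of the group either.

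The ligands were not well above background on the primary array. Their folds are lower bounds on this signal scale, set against the lowest signal that counted as above background there. The test was made on the measured readings, not on these bounds. Tgfb3 was at least 19.8-fold higher in eHep (2.19 ± 0.96, SD, n = 3 mice) and at least 15.2-fold higher in mHep (1.81 ± 0.68), while it measured -3.91 in primary cells. Tgfb2 was at least 6.92-fold higher in eHep (0.67 ± 0.03) and at least 14.5-fold higher in mHep (1.74 ± 0.77), with -3.13 measured in primary cells. Tgfb1 was at least 5.08-fold higher in eHep (0.23 ± 0.26). In mHep its level was -0.18 ± 1.22, and its difference did not pass. None of the ligands was tested when a gene had to be above background in every group. With normexp background correction, which raises low signals, the eHep folds were 7.31 for Tgfb3, 3.05 for Tgfb2 and 2.19 for Tgfb1, all under these bounds. The mHep folds were then 5.66, 5.90 and 1.87 in the same order, and only Tgfb2 in mHep passed, and without C57B6-No1 no ligand did. The Tgfb1 call was also lost with readings raised to the background limit, without replicate 1 or 2 of C57B6-No1 in eHep, and without replicates 2 or 3 of either mouse in mHep.

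Id1 was at -1.33 in primary cells, where it was well above background, and at 3.88 ± 1.56 in eHep, a 37.0-fold difference with an adjusted p of 0.0499 (19.6-fold with normexp). In mHep it was at 3.09 ± 1.33 (adjusted p = 0.0962). The lowest Id1 level on any cultured array was 1.01, so the primary array lay below all 14. The eHep call was lost without replicate 1 or 2 of either mouse in eHep (129S1-No1 and C57B6-No1), without replicate 2 or 3 of 129S1-No1 or replicate 3 of C57B6-No1 in mHep, without the mouse C57B6-No1, and with normexp background correction. Id3 and Id2 did not pass in either comparison. Primary cells read 3.74 for Id3, within the eHep range of 1.33 to 4.32 and above every mHep array, the highest of which was at 3.34. For Id2 they read 5.87, above every eHep array, the highest of which was at 5.29, and within the mHep range of 4.57 to 6.38.

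Tgfbr2 read 1.92 in primary cells, below all cultured arrays, and its differences of 2.36 ± 0.89 (SE) in eHep and 2.81 ± 0.89 in mHep did not pass (adjusted p = 0.127 and 0.0993). Tgfbr1, at -1.17 in primary cells, lay just below the lowest cultured array at -1.10, and Smad6 at -1.45 and Smad7 at -0.75 lay within the cultured range. Their adjusted p-values ran from 0.19 to 0.951 over both comparisons. Primary cells went directly onto the array, while both other groups had spent 21 days in culture, so culture medium, time in culture and isolation cannot be told apart here.

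**Figure D3:**
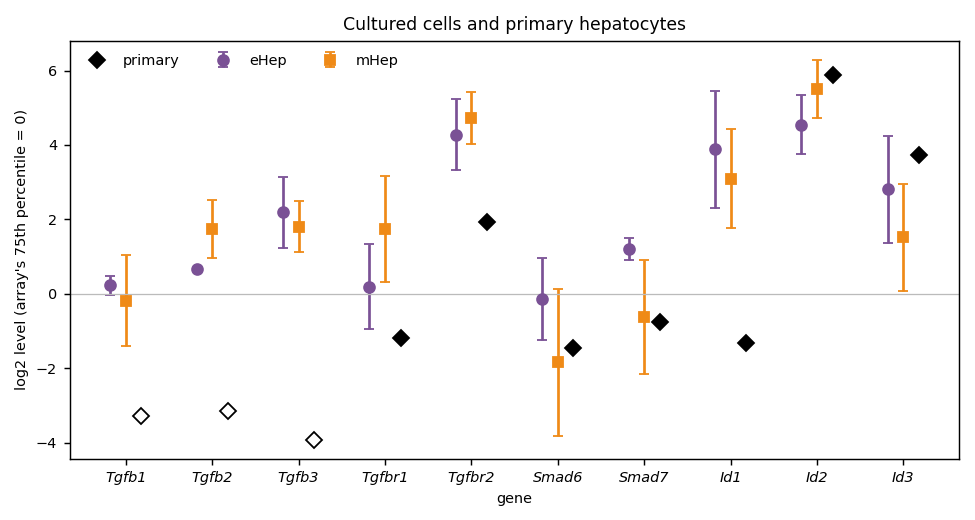
Log2 level relative to the array's 75th percentile (vertical axis) of each gene (horizontal axis) in eHep and mHep (mean and SD over 3 mice) and on the single primary array, where open diamonds were not well above background. All 3 ligands and Id1 lay lower in primary cells than in eHep, whereas Id2 and Id3 did not.

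Over the 3 mice, 3 genes of the wider pathway passed. Of 94 other genes of the pathway on the array, 68 were tested between mHep and eHep, and 1 rose and 2 fell, beside 1.84% of all genes tested in either direction. Tmprss6, a membrane protease that trims the BMP co-receptor hemojuvelin, rose by 4.82 ± 0.54 (SE, adjusted p = 0.0182) and was higher in mHep in all 3 mice. It was above background on 5 of 7 eHep arrays and is a liver-enriched gene, at 8.13 in primary cells. Ltbp1, which binds latent TGF-beta to the matrix, fell from 0.68 ± 0.97 to -2.17 ± 1.83 (adjusted p = 0.0485). Thbs1, an activator of latent TGF-beta, read -2.62 ± 0.68 in eHep and -5.62 ± 1.54 in mHep (adjusted p = 0.0437), but 2 of 7 mHep arrays were above background. With the dim readings raised to the background limit it was 4.36-fold lower in mHep. Both were lower in mHep in all 3 mice, and they were 2 of 8 tested genes of latency and activation, beside the same 1.84%. Their adjusted p-values were close to the threshold, and whether their calls held under the alternative settings was not checked. Over all genes, 110 passed with quantile normalization, against 268 here.

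Of the other ligands, 0 of 14 passed by limma, and the largest differences were -2.37 for Gdf11, -2.07 for Bmp7, -2.01 for Bmp2 and 1.83 for Bmp6. Bmp6, a ligand that controls hepcidin, differed by 3.47 in 129S1-No1, -0.10 in C57B6-No1 and 2.10 for 129S1-No2. Of the other receptors and co-receptors 0 of 10 passed, led by Cd109 at -3.07, Eng at -1.09, Bmpr1a at 0.81 and Acvr1 at -0.66. Of the signal-carrying Smads 0 of 5 passed, and their differences were -0.45 for Smad3, -0.43 for Smad2, 0.10 for Smad5, -0.09 for Smad1 and 0.07 for Smad4. Among inhibitors and repressors, 1 of 15 passed (Tmprss6), and Fst (-3.03), Pmepa1 (-1.94) and Tgif2 (-1.14) did not.

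The TGF-beta target genes had a median difference of -0.91 over 11 tested genes, against -0.10 over all genes, and 0 of 11 passed. Snai1, a repressor of epithelial genes, differed by -2.31 ± 0.45 (adjusted p = 0.0754) and was lower in mHep in all 3 mice. Ccn2 differed by -1.02 ± 0.64 and Cdkn2b by -1.01 ± 0.43 over the mice. Of the BMP targets besides the Id genes, Atoh8 (-0.52) and Msx1 (0.21) were tested, and the E proteins that Id proteins bind differed by -0.74 for Tcf3, -0.07 for Tcf12 and 0.00 for Tcf4; none of these 5 passed.

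Within single mice the wider genes moved more often. In 129S1-No1, 16 of 75 tested genes rose and 26 fell, and in C57B6-No1 5 rose and 24 fell. The change was higher in C57B6-No1 than in 129S1-No1 for 7 of the 75 genes and lower for 15, beside 10.3% and 6.29% of all genes (16.6% in all). The counts in single mice are to be read beside the shares of all genes that passed there. In 129S1-No1, 17.3% of all genes rose and 27.1% fell (44.4% in all). In C57B6-No1, 11.8% rose and 13.4% fell (25.2% in all).

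**Figure D4:**
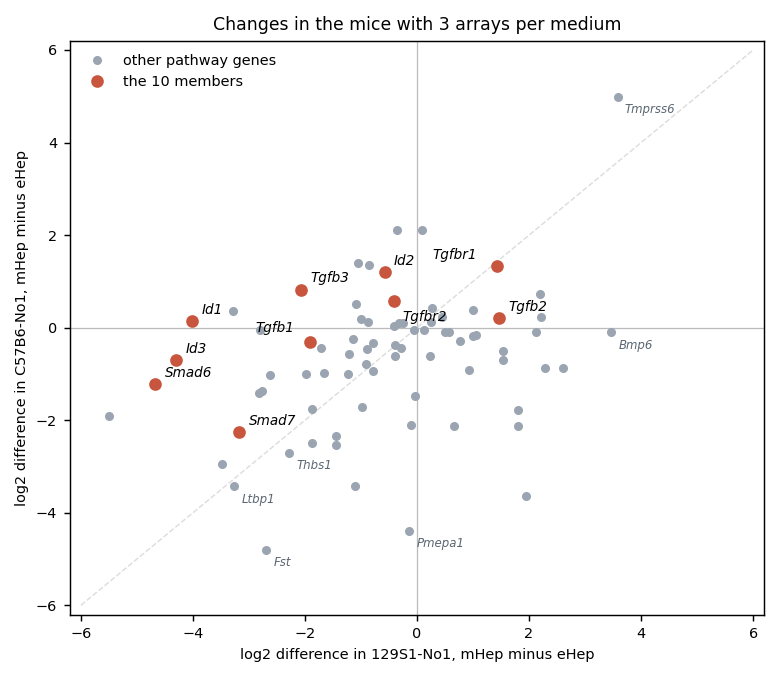
Log2 difference mHep minus eHep in 129S1-No1 (horizontal axis) against C57B6-No1 (vertical axis) for the 10 genes (red) and the 68 other pathway genes tested over the 3 mice (grey); the dashed line marks equal change. Smad7, Ltbp1 and Thbs1 lay near the line, while Id1, Id3 and Smad6 lay far to its left.

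Markers of other liver cell types were read on the same arrays. Of 8 cholangiocyte (bile duct cell) markers, 5 to 7 were above background on every cultured array, and their summed signal was 525 to 622 in eHep and 151 to 205 in mHep of 129S1-No1. In C57B6-No1 it was 293 to 479 in eHep and 542 to 854 in mHep. The 6 mesothelial markers, of which 1 to 4 were above background on cultured arrays and Wt1 on none, summed to 316 to 384 in eHep and 9.25 to 23.7 in mHep of 129S1-No1, against 232 to 366 and 147 to 292 in C57B6-No1. Both sums moved in the direction of Id1 and Id3 in 129S1-No1. The number of cholangiocyte markers above background went the other way there, from 5 to 6 in eHep to 7 in mHep. The part of either cell type in the change of Id1 and Id3 was not tested.

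The 12 stellate cell markers summed to 26.2 to 33.1 in eHep and 18.1 to 26.4 in mHep of 129S1-No1. In C57B6-No1 they summed to 19.4 to 30.6 in eHep and 17.5 to 31 in mHep. Most of this signal came from Acta2, at a mean log2 level of 4.45 in eHep and 4.07 in mHep over the 3 mice. Acta2 is also one of the TGF-beta target genes of the wider pathway. Of the 12 markers, 2 to 5 were above background on cultured arrays. Acta2 was so on all 15 arrays, Dcn on 3 of 7 eHep and all 7 mHep arrays, Ngfr on 5 and 5 and Colec11 on 4 and 4, while Des, Pdgfrb and Lum were so on none. Of the 10 endothelial markers, 2 to 5 were above background on cultured arrays. Stab2 and Flt1 were so on all 15 arrays, Clec4g on 6 of 7 eHep and 1 of 7 mHep arrays, and Kdr on 3 and 2, while Pecam1, Tie1 and Emcn were so on none and Cdh5 only on the primary array. The macrophage markers Adgre1 and Clec4f were above background only on the primary array, although Cd68 and Csf1r were so on all cultured arrays. The 9 macrophage markers summed to 5.53 to 34.2 in eHep and 60.7 to 179 in mHep of C57B6-No1, where Id2 rose, and their part in that rise was not tested. Of the 4 platelet and megakaryocyte markers, 0 to 3 were above background on cultured arrays and 0 on the primary array. Their sum was 0.0522 to 0.977 in eHep and 3.69 to 7.12 in mHep of C57B6-No1, and its part in the rise of Id2 was not tested either.

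Genes with a profile most like that of each member were sought among 8479 genes above background on every array, by Pearson's r over 7 means (6 of mouse and medium, and the primary array). For Id1 they were G6pdx (r = 0.991), Arrdc1 (0.984) and Morn4 (0.978), and for Id3 Zfp593 (0.983) and Prxl2a (0.978). For Id2 they were Acad12 (0.967), Rnf181 (0.965) and Hip1r (0.960), and for Smad7 Slc45a4 (0.973), Raver1 (0.959) and Hspg2 (0.958). Tgfbr1 was closest to Myo6 (0.963), Osbpl11 (0.945) and Dsp (0.942), and Tgfbr2 to Ywhaz (0.987), Mogat2 (0.977) and Cdc42ep2 (0.971). Tgfb1, Tgfb2, Tgfb3 and Smad6 were dim on at least 1 array and were not ranked. Among the members themselves, over 6 cultured means, r was 0.97 for Id1 with Id3, 0.95 for Smad6 with Id3 and 0.85 for Smad6 with Id1. The means come from 3 mice and share arrays and scaling, so these values describe the arrays only.

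The promoters of Id3 and Id2 are shown because both genes changed within a mouse, Id3 falling in 129S1-No1 and Id2 rising in C57B6-No1. RefSeq promoters in GRCm38.p6 were matched for 7 of the 10 genes, with 8 promoters, and the 250 bases before each start were searched on both strands for CAGAC, the core letters of a Smad binding element, and for GGCGCC, a GC-rich sequence that BMP-activated Smads can bind. No base was shared by matches of both motifs. CAGAC or its complement was in 4 of 8 promoters of the genes and in 42.2% of all 32851 promoters. GGCGCC was in 2 of 8 and in 9.59% of all. The Id3 window, at chr4:136143572-136143821 (plus strand), held CAGAC from 167 bases and its complement GTCTG from 68 bases before the start, and no GGCGCC. The Id2 window, at chr12:25096093-25096342 (minus strand), held GGCGCC from 231 bases before the start and no CAGAC. Smad6 and Tgfb1 held neither motif in this window. Matches are given in capitals, and a match describes letters, not a bound site.
Id3: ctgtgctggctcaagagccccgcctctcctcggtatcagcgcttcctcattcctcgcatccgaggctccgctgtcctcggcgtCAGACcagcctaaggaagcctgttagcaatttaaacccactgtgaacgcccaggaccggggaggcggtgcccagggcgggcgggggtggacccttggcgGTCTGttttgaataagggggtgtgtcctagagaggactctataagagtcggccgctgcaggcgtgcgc
Id2: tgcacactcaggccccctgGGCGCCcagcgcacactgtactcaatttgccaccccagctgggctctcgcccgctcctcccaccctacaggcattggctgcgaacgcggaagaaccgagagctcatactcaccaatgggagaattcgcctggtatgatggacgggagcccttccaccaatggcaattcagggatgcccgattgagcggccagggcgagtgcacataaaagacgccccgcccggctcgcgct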

How the data were processed

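Per the file headers, scans were read by version 10.7.1.1 (earlier scan) or 10.7.3.1 (later scan) of Agilent's Feature Extraction, and the processed signal used here is an intensity corrected for background by that software. The table of values deposited by the authors holds log2 values with the same quartiles on each array, by an unstated method, and served as an alternative. Control and outlier spots were left out, spots of a probe were averaged, and the brightest probe stood for a gene. Log2 signals were centred on each array's 75th percentile. The 6 means of mouse and medium were fitted in limma 3.58.1 (R 4.3.3), with terms for medium and mouse. A second fit took eHep, mHep and primary as groups over 7 values, and another the 4 groups of the 12 arrays of 129S1-No1 and C57B6-No1. Adjusted p-values are Benjamini-Hochberg values over all genes tested, with a threshold of 0.05 and, against primary cells, a log2 difference of at least 1. Tested genes were above background in at least 2 mice of a medium, on all their arrays (against primary cells, also where the primary array had it, and within mice, on all arrays of a group).

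The mouse pairs the media per the labels, and the deviations of its eHep and mHep means correlated at 0.397, 0.563 and 0.539 (different mice at most 0.011). These are deviations from the mean over the 3 mice, so the value for different mice is not independent of the others. The members and lists were chosen with earlier results of these data known. All members are named. Of the wider lists, passing genes and up to 4 genes with the largest differences are named, and up to 3 genes per member are named for likeness; a few named by these rules were left unreported. Scripts were tested on simulated data with 200 altered genes. The alternatives covered background, scaling, filter, probe choice, the model, slide, scan and left-out arrays or mice. The fit within the earlier scan against primary cells was added after the data were seen.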

Additional observations from a re-analysis of the deposited data

Results flagged for a closer look

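The change from eHep to mHep differed between C57B6-No1 and 129S1-No1 for 6 genes by limma's test of the difference itself, given here as the change in C57B6-No1 minus that in 129S1-No1. The differences were 4.15 for Id1 (0.14 and -4.01, adjusted p = 0.00699), 3.60 for Id3 (-0.70 and -4.30, adjusted p = 0.0198) and 3.45 for Smad6 (-1.22 and -4.67, adjusted p = 0.00303). They were 2.89 for Tgfb3 (0.82 and -2.07, adjusted p = 0.00568), 1.77 for Id2 (1.20 and -0.58, adjusted p = 0.00835) and -1.27 for Tgfb2 (0.20 and 1.47, adjusted p = 0.0115).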

How the results depend on the processing

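Over the 3 mice, the count of 0 genes between mHep and eHep became 4 with the replicate block (single arrays, mouse with replicate number; same-numbered arrays did not pair), 5 with single arrays and mouse as a fixed term or as a random block, 2 with slide and 5 with scan as a term, 2 in the earlier scan, 7 in the later scan, and 0 to 1 when mice or arrays were left out. Against primary cells, the 4 genes of eHep became 0 with normexp, 1 with the strict filter, 8 with the C57B6 mouse alone, and 0 to 4 with mice or arrays left out. The 2 genes of mHep became 1 with normexp, 0 with the strict filter, 5 without a filter, 5 with the C57B6 mouse alone, 6 within the earlier scan, and 0 to 4 with mice left out. Within C57B6-No1 the count of 3 became 5 with scan as a term, beside 6085 of all 15743 genes. All other counts stayed within 1.5 times. Settings with single arrays as samples take the spread from arrays instead of mice. Over all genes, the 268 calls between mHep and eHep ranged from 2 without the mouse block to 7347 within the later scan. Of 14597 genes, 4345 passed with the replicate block, 5024 with mouse as a fixed term and 4788 with it as a random block. With slide as a term 3006 passed, with scan 6176, and within the earlier scan 1520. Against primary cells, the share of all genes that passed also rose without a filter, with the C57B6 mouse alone and within the earlier scan. Higher counts in those settings are therefore no stronger result for these genes.

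Of 1638 gene values under alternatives, 36 changed sign, none of them called as reported. Id2 between mHep and primary turned to 0.25 (normexp), 1.07 (quantile and the deposited table), 0.12 (median), 0.22 (percentile of detected probes) and 0.15 (C57B6 alone), and Smad6 there to 0.09 (median), 0.19 (percentile of detected probes), 0.70 (C57B6 alone) and 0.57 (earlier scan). The Tgfbr1 difference between mice turned to 0.13 (normexp) and 0.00 (quantile and the deposited table). Tgfbr2 within 129S1-No1 turned to 0.12 (quantile) and 0.13 (the deposited table), and Tgfb1 within C57B6-No1 to 0.73 (slide). Within the earlier scan mHep minus eHep was 0.87 for Tgfb1, 0.54 for Tgfb3, 0.04 for Smad6 and 1.11 for Id1. Within the later scan it was -0.09 for Tgfbr2 and, in C57B6-No1, -0.16 for Id1. Leaving out mice or arrays, mHep minus eHep ran from -1.11 to 0.35 for Tgfb1, -0.98 to 0.46 for Tgfb3, -1.94 to 0.82 for Id1 and -2.50 to 0.21 for Id3, turning positive without 129S1-No1. Against primary cells mHep ran from -0.99 to 0.75 for Smad6, -0.65 to 0.87 for Smad7 and -0.62 to 0.09 for Id2. Within C57B6-No1 the range was -0.70 to 0.18 for Tgfb1, -0.58 to 0.56 for Id1 and -1.25 to 0.08 for Id3, and the Tgfbr1 difference between mice ran from -0.68 to 0.76.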
